A study of Mus musculus with 56 samples.

Results

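Mcoln1, Pnpla6, Xab2, Stxbp2, Camsap3, Evi5l, Map2k7, Timm44, Cers4 and Arhgef18 lie on both sides of Elavl1 on proximal chromosome 8 of the mouse. The 10 genes were taken from a list of names chosen by position, and the rule that chose them used no measured value, although earlier results of these data were known when they were listed. All 10 were found among the 15539 genes of the count table, and all 10 were among the 14321 genes that passed a filter on low counts. The question asked of them was whether any differed between mice labelled HuRm-/- and control mice.

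Elavl1 encodes human antigen R (HuR), an RNA-binding protein that attaches to AU-rich stretches of many mRNAs and affects their stability. A floxed allele is made by gene targeting in embryonic stem cells and is then crossed into the strain under study. Genes close to a targeted locus are usually inherited together with it, so that DNA of the strain the stem cells came from can stay beside the allele for many generations.

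RNA was sequenced from the gastrocnemius, a large calf muscle, of 56 mice in 8 groups of 7 that combined sex, genotype label and wheel. Mice labelled HuRm-/- carried floxed Elavl1 and Cre recombinase under the Mlc1f promoter of Myl1, a gene of fast muscle fibres, and the controls were HuRfl/fl littermates. Both were C57BL/6 mice that ate a chow diet and were 5 months of age, and from 10 to 20 weeks of age each group had either a wheel it could run on or a locked wheel. By the study's methods both genotypes therefore carried the floxed Elavl1 allele with whatever DNA flanks it, and they differed in Cre. The tissue was bulk muscle, in which fewer cells of a type and less RNA per cell cannot be told apart. Every mouse was counted as 1 replicate, and the p-values measure the spread between these mice.

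Library totals ran from 6639782 to 21633091 counts, with a median of 12380363. The fast muscle identity of the tissue was clear, since the summed level of 10 fast muscle markers was at least 92593 counts in each 1e+06 of the total (CPM) in each mouse. Levels are given here as CPM after TMM scaling, a correction for differences in library composition. The summed level of 14 liver markers ran from 14.1 to 3422 CPM, and its part in the results below was not tested except by adding it to the model. The library of male 9 labelled HuRm-/- on a locked wheel stood furthest from its own group, with a median Spearman correlation of 0.933 with the other 6 mice.

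Elavl1 was measured first as a check of the labels, and it was not lower in the labelled mice. Among controls its level ran from 27.8 to 61.9 CPM (median 49.4, n = 28), and among labelled mice from 37.9 to 69.8 CPM (median 52.5, n = 28). The genotypes overlapped over most of their range, and the labelled mice had 109.3% of the control level (95% interval 100.9 to 118.5%, limma adjusted p = 0.15). The 4 comparisons within sex and wheel gave log2 fold changes of -0.05 in locked-wheel males, 0.11 in locked-wheel females, 0.44 in running-wheel males and 0.01 in running-wheel females. Of these, Elavl1 was called higher with the label in running-wheel males (SE 0.114, limma adjusted p = 0.0242). In that group the controls were at 27.8, 30.8, 40.3, 54.4, 57.3, 57.9 and 60.9 CPM, and the labelled males ran from 53.2 to 69.8 CPM with a median of 61.3 CPM. The 3 lowest controls lay below every labelled male and the other 4 lay within their range. The call was lost without control 10 (adjusted p = 0.132), control 13 (0.0995), control 25 (0.0619), labelled male 1 (just above 0.05) or labelled male 21 (0.0671). It was also lost in edgeR's quasi-likelihood test (0.0605), with liver markers as a covariate (0.0507) and in a fit of the 14 mice alone (0.133). Counts were summed over the whole gene, and which exons the reads came from was not analysed here, so that Elavl1 counts need not show the deletion. Because Elavl1 counts were not lower with the label, the genotype is called by its label throughout.

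Myl1, whose Mlc1f promoter drives Cre, was lower in the labelled mice. Its level ran from 7507 to 14049 CPM in controls (median 9794 CPM) and from 2320 to 13731 CPM in labelled mice (median 5730 CPM). The labels overlapped in range, and Myl1 was at 63.9% of the control level over all mice (log2 fold change -0.65, SE 0.112, limma adjusted p = 5.61e-05). Not every labelled mouse was lower. Labelled males 12 and 8 and labelled female 34, all on locked wheels, were at 13731, 13107 and 13360 CPM, above the control median. The SD within groups was 1970 to 4331 CPM in labelled mice and 424 to 1928 CPM in controls.

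On GRCm38, as annotated in GENCODE M21, the 10 genes run from Arhgef18 on the centromere side to Cers4 on the other. Arhgef18 lies at chr8:3393006-3456601, Mcoln1 at chr8:3500457-3515232, Pnpla6 at chr8:3515384-3544267 and Camsap3 at chr8:3587293-3609075, all on the plus strand. Xab2 follows on the minus strand at chr8:3608421-3621316, then Stxbp2 at chr8:3630955-3643644 on the plus strand. Closer to Elavl1 are Evi5l at chr8:4166567-4211257 and Map2k7 at chr8:4238740-4247897, both on the plus strand, and Timm44 at chr8:4259731-4275913 on the minus strand. Elavl1 itself spans chr8:4285382-4325413 on the minus strand, and Cers4, on its far side, spans chr8:4493026-4531680 on the plus strand. The gap to Elavl1 is 9.47 kb for Timm44, 37.5 kb for Map2k7, 74.1 kb for Evi5l and 168 kb for Cers4. It is 642 to 829 kb for the other 6 genes, from Stxbp2 to Arhgef18.

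Map2k7 and Timm44 were by far the most abundant of the 10. Map2k7 had a mean of 615 counts (49.1 CPM) and Timm44 one of 468 counts (37.3 CPM), whereas the other 8 had means of 10.4 to 102 counts. Per kilobase of annotated exon the levels were 12.8 CPM for Map2k7 and 10.2 CPM for Timm44, against 0.137 to 1.22 CPM for the others. Camsap3 was the lowest, with counts of 0 to 36 and 3 mice at 0. The spread between mice of a group (SD) was 0.132 on the log2 scale for Timm44, 0.176 for Map2k7, 0.220 to 0.397 for 7 genes and 0.900 for Camsap3. Camsap3 and Xab2 share 570 bases of exon on opposite strands, and 1349 of the 3829 exon bases of Map2k7 are also exons of Gm49320 on the same strand. On opposite strands, Elavl1 shares 204 exon bases with Ccl25. Evi5l likewise shares 672 with 4932443L11Rik and 489 with Prr36, and Cers4 shares 214 with Gm36956 and 886 with Vmn2r-ps89. Whether strand was used in counting is not given in the sources used here, so reads in such stretches are uncertain.

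The promoters of Map2k7 and Timm44 are shown because these 2 genes were the best measured of the 10. No result below was drawn from the promoter sequences. Each is a RefSeq window on GRCm38.p6, from 250 bases before to 50 bases after the start, printed 5′ to 3′ along the gene. Capitals mark the match to a searched motif. For Map2k7 that is the GC box, searched as GGGCGG, and the whole window is chr8:4238490-4238789 on the plus strand. For Timm44 it is the CAAT box, searched as CCAAT, and the whole window is chr8:4275856-4276155 on the minus strand.
Map2k7: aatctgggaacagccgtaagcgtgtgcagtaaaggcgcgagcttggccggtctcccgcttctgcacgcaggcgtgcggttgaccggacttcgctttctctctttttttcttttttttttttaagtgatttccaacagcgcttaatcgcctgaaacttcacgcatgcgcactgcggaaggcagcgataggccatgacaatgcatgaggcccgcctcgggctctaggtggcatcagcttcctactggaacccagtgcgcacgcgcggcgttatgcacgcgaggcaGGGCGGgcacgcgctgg
Timm44: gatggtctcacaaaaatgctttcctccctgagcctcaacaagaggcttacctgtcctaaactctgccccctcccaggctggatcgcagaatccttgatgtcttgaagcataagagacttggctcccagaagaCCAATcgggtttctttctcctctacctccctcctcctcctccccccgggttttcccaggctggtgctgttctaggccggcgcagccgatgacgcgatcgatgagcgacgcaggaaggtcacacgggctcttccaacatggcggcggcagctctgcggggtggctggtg
Neither window holds the TATA box, searched as TATAAA, on either strand. Nor does either hold an E-box, the motif of muscle bHLH factors, searched as CANNTG. A promoter entry was matched for 9 of the 10 genes, and not for Camsap3. The GC box occurred in 7 of the 9 and in 35.7% of 32851 RefSeq promoters of the same length, and the CAAT box in 3 of the 9 and in 37.4% of all. The E-box occurred in 4 of the 9 beside 72.3% of all, and the TATA box in 0 of the 9 beside 13.6% of all. These are matches of letters and not measured binding.

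None of the 10 genes was called with the genotype label. Over all mice, 0 of 10 passed the limma test at an adjusted p of 0.05 or less, where 11.8% of all genes tested did. An unadjusted limma p under 0.05 was found in 2 of 10, Timm44 and Camsap3, beside 24.7% of all genes. Within locked-wheel males the count was 0 of 10 beside 1.15% of all genes, and within locked-wheel females 0 of 10 beside 0.384%. Within running-wheel males it was 0 of 10 beside 2.63%. Timm44 alone of the 10 had an unadjusted p under 0.05 there, beside 15.5% of all genes. In the other 3 strata none of the 10 had one. The share of all genes was 16.7% in locked-wheel males, 14.3% in locked-wheel females and 12.6% in running-wheel females. Within running-wheel females the count called was 0 of 10 beside 0% of all genes, although 1807 genes had an unadjusted p under 0.05 and DESeq2 called 71. edgeR's quasi-likelihood test and DESeq2 also called 0 of 10 in each of these 5 comparisons. In the comparisons within sex and wheel at most 2.63% of genes were called, so that 0 of 10 is near the background there. The median log2 fold change of the 10 over all mice was 0.03, beside 0.01 over all genes, and their median absolute change was 0.09, beside 0.10. The 95% intervals of 8 of the 10 spanned no change. Slow muscle markers were higher with the label over all mice (6 of 6 called, beside 11.8% of all genes). Their part in the estimates for the 10 was not tested.

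**Figure D1:**
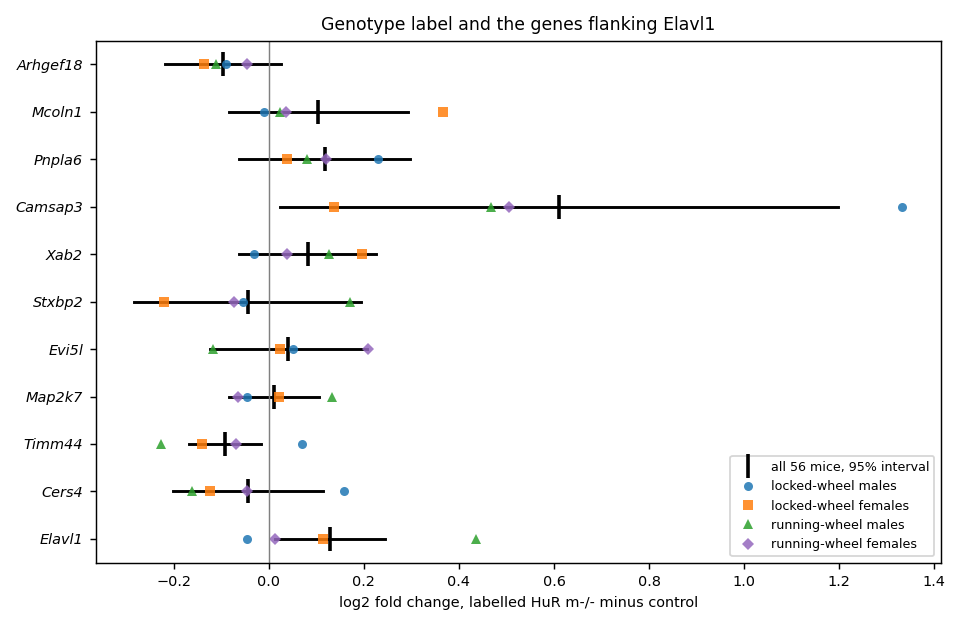
Log2 fold change of each gene between mice labelled HuRm-/- and controls (x axis) for the 10 genes and Elavl1 (y axis, in chromosomal order with Elavl1 last). Black ticks and bars give the estimate and 95% interval over all 56 mice, and coloured symbols give the 4 estimates within sex and wheel. Timm44 (-0.09) and Camsap3 (0.61) are the 2 of the 10 whose interval leaves out 0, and the symbols of most genes fall on both sides of it.

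Timm44, a part of the motor that pulls proteins into the mitochondrial matrix, lies nearest to Elavl1. Its level ran from 32 to 47.6 CPM in controls (median 38.0 CPM, n = 28) and from 29.7 to 43.6 CPM in labelled mice (median 35.2 CPM, n = 28). Labelled mice were lower at each of these points, but the labels overlapped over most of their range. The labelled mice had 93.8% of the control level (95% interval 89.0 to 98.9%, unadjusted p = 0.0182, limma adjusted p = 0.106). The lower value was not shared by all strata. In running-wheel males the controls ran from 34.9 to 47.6 CPM (median 42.1 CPM) and the labelled males from 29.8 to 38.8 CPM (median 36.1 CPM). That is a log2 fold change of -0.23 (SE 0.0739, 85.4% of control, limma adjusted p = 0.0793), and the groups overlapped between 34.9 and 38.8 CPM. The log2 fold change was -0.14 in locked-wheel females, -0.07 in running-wheel females and 0.07 in locked-wheel males, and none of these was called. The interaction of genotype with wheel was -0.11 (limma adjusted p = 0.585) and that with sex -0.03 (adjusted p = 0.967), so the strata were not shown to differ.

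The Timm44 result lay close enough to the threshold for a single mouse or setting to move it. Without control male 5 on a running wheel it was called in running-wheel males (-0.27, limma adjusted p = 0.0336), and without labelled female 34 on a locked wheel it was called over all mice (-0.11, adjusted p = 0.0368). With sample quality weights, which let limma give less weight to variable libraries, it was called in both (adjusted p = 0.00453 and 0.0239). In the other 9 settings fitted to all mice it was called in neither. The summed liver markers were higher in labelled than in control running-wheel males, with medians of 81.4 and 41.7 CPM and ranges of 16.8 to 535 and 14.7 to 146 CPM. With those markers in the model the log2 fold change of Timm44 in running-wheel males was -0.22 (limma adjusted p = 0.129).

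Map2k7, the MKK7 kinase that activates JNK, is the next gene towards the centromere among the 10. Controls ran from 36.1 to 80.1 CPM (median 47.0 CPM) and labelled mice from 38.1 to 72.1 CPM (median 48.3 CPM). The labels covered nearly the same range, at 100.7% of the control level with a 95% interval of 94.3 to 107.6% (limma adjusted p = 0.934). The 4 comparisons within sex and wheel ran from 95.5% of control in running-wheel females to 109.6% in running-wheel males. This was the narrowest bound after that of Timm44.

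Among the signalling and membrane traffic genes, no difference with the label passed the test. Arhgef18, a guanine nucleotide exchange factor, had a median of 8.39 CPM in controls (6.19 to 10.5 CPM) and 7.83 CPM in labelled mice (4.84 to 11 CPM). Its estimate was below control in all 4 strata, from -0.14 to -0.05 on the log2 scale, with 93.6% of control over all mice (95% interval 86.0 to 101.8%, limma adjusted p = 0.341). Evi5l, a TBC-domain protein of the kind that switches off Rab GTPases, had medians of 5.94 CPM in controls and 5.87 CPM in labelled mice. The intervals of both genes included no change, and that of Evi5l ran from 91.8 to 115.3% of control. Stxbp2, the Munc18-2 protein of SNARE-mediated exocytosis, had medians of 1.84 CPM and 1.69 CPM and an interval of 82.2 to 114.4% of control.

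The genes of lysosome, lipid and nucleus likewise gave intervals that included no change. Mcoln1, the lysosomal cation channel TRPML1, had a median of 3.93 CPM in controls (2.33 to 6.00 CPM) and 4.03 CPM in labelled mice (2.55 to 6.02 CPM), with 107.4% of control (95% interval 94.3 to 122.4%). Its highest stratum was locked-wheel females, at 129.0% of control with an interval of 98.1 to 169.5% (limma adjusted p = 0.390). Pnpla6, the neuropathy target esterase that breaks down phospholipids, was at 108.5% of control (95.8 to 122.9%) and above control in all 4 strata. Neither gene passed the test in any stratum. Cers4, a ceramide synthase and the 1 gene of the 10 on the far side of Elavl1, was at 97.0% of control (86.9 to 108.3%, limma adjusted p = 0.801). Xab2, a factor of splicing and transcription-coupled repair, was at 105.8% of control (95.8 to 117.0%, adjusted p = 0.529).

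Camsap3, which binds the minus ends of microtubules, had the largest estimate and the least depth behind it. Controls ran from 0 to 1.66 CPM (median 0.627 CPM) and labelled mice from 0.158 to 2.15 CPM (median 0.962 CPM). All 3 mice at 0 were controls, and the labels overlapped from 0.158 to 1.66 CPM. The log2 fold change was 0.61 (SE 0.293), or 152.7% of control with a 95% interval of 101.6 to 229.4% (unadjusted p = 0.0418, limma adjusted p = 0.182). It was above control in all 4 strata, from 0.14 in locked-wheel females to 1.33 in locked-wheel males, where the interval ran from 93.9 to 676.0% of control. At a mean of 10.4 counts a difference of this size was not resolved.

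**Figure D2:**
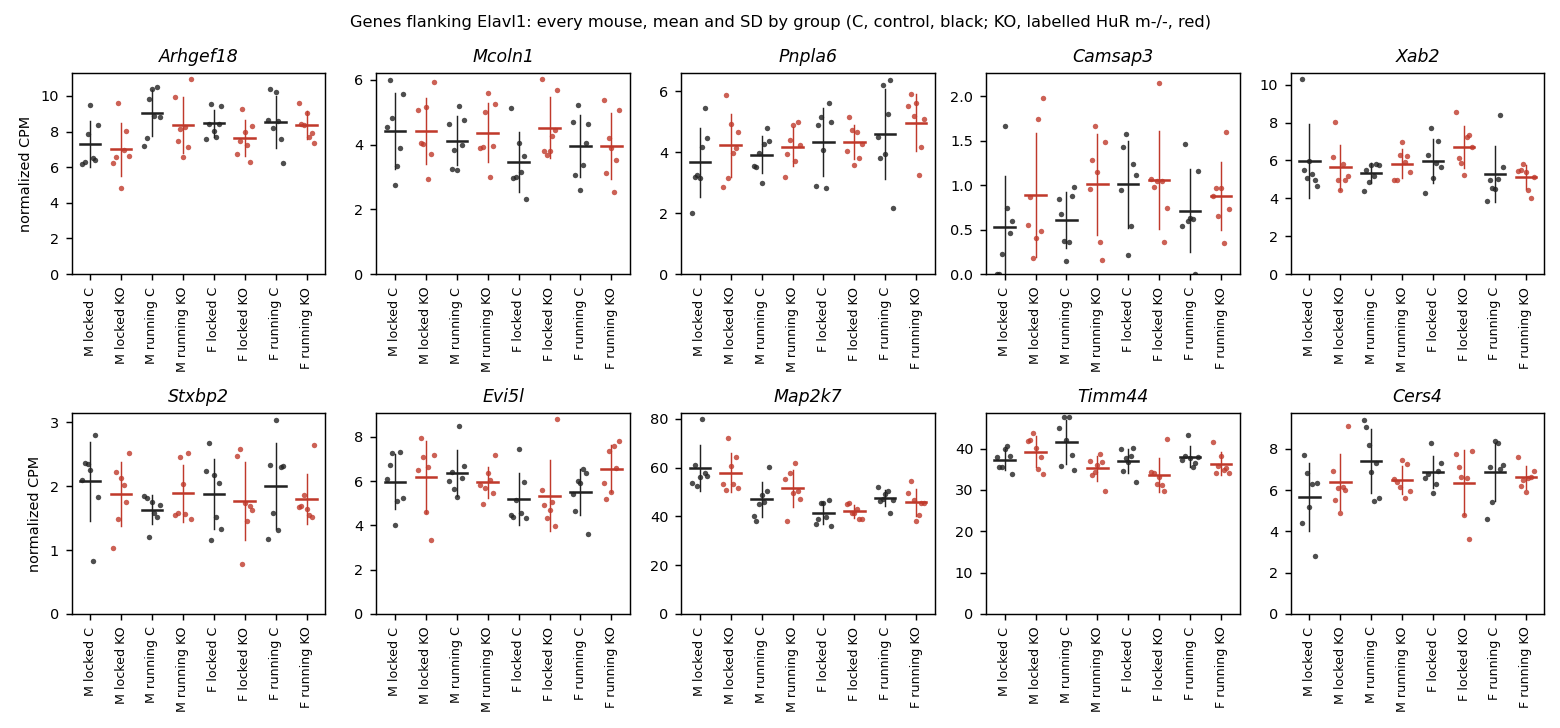
Normalized CPM (y axis, from 0) of each of the 10 genes in every mouse, by group (x axis: M male, F female, locked or running wheel, C control in black, KO labelled HuRm-/- in red). Points are mice, horizontal bars group means and vertical lines 1 SD, with 7 mice a group. Black and red points overlap in every pair of groups, and the Map2k7 levels of locked-wheel males stand above those of locked-wheel females.

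In most of the 10 genes the sign of the estimate for the label was not the same in all 4 strata, as in most genes tested. The 4 comparisons within sex and wheel share no mice, and 3 of the 10 genes had the same sign in all 4, where 23.9% of all genes tested did. Pnpla6 and Camsap3 were the 2 that were higher in all 4 and Arhgef18 the 1 that was lower. In no stratum did any of the 10 separate the 7 labelled from the 7 control mice without overlap, which 0.384% of all genes did in locked-wheel males, 0.272% in locked-wheel females, 0.587% in running-wheel males and 0.321% in running-wheel females. The interaction of genotype with sex called 0 of 10 beside 0.00698% of all genes, and that with wheel 0 of 10 beside 0.00698%. None of the 10 had an unadjusted limma p under 0.05 in either interaction, beside 7.71% of all genes for sex and 11.3% for wheel. In both, edgeR and DESeq2 also called 0 of 10.

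Other genes of the same stretch were measured as a list. Besides the 10 and Elavl1, 22 genes of the table start within 5 Mb of Elavl1 on chromosome 8, and 20 of them were tested. Of these, 2 were called with the label over all mice, both lower, where 11.8% of all genes were called. Pex11g, a peroxisomal membrane gene at chr8:3457105-3467680 beside Arhgef18, had 75.6% of the control level (log2 fold change -0.40, SE 0.130, limma adjusted p = 0.0313). Arglu1, a gene of transcription and splicing at chr8:8665075-8690521, had 89.8% (log2 fold change -0.16, SE 0.0396, adjusted p = 0.00508). Pex11g averaged 2.10 CPM, and its call was lost in edgeR's quasi-likelihood test (adjusted p = 0.0658), in DESeq2 (0.0575) and without control female 26 on a running wheel (0.0531), control male 17 on a locked wheel (0.0505), labelled male 9 on a locked wheel (0.0711) or labelled male 2 on a running wheel (0.0520). As 2 of 20, or 10% of the list, they are near the background. Within running-wheel males 1 of the 20 was called, lower (limma adjusted p = 0.0365), beside 2.63% of all genes. In each other stratum 0 of 20 were called. The share of all genes there was 1.15% in locked-wheel males, 0.384% in locked-wheel females and 0% in running-wheel females.

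**Figure D3:**
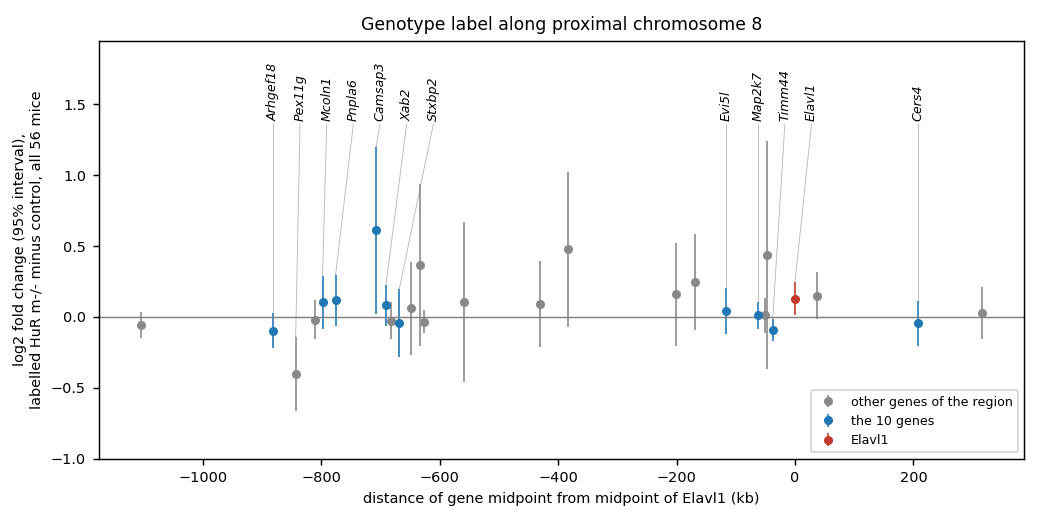
Log2 fold change with its 95% interval (y axis, mice labelled HuRm-/- minus controls, all 56 mice) against the distance of each gene's midpoint from that of Elavl1 (x axis, kb), for tested genes from Insr to Zfp958. The 10 genes are blue, Elavl1 red and other genes grey, and Pex11g (-0.40) is the 1 gene in the window that passed the test.

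Sex, and not the genotype label, gave the 1 call among the 10 in the comparisons planned. Map2k7 ran from 38.0 to 80.1 CPM in males (median 53.4 CPM, n = 28) and from 36.1 to 54.4 CPM in females (median 45.4 CPM, n = 28). Females were lower at each of these points and the sexes overlapped from 38.0 to 54.4 CPM. Map2k7 was 82.5% of the male level in females (95% interval 77.3 to 88.2%, log2 fold change -0.28, SE 0.0475, limma adjusted p = 4.08e-06). It was 1 of 10 called beside 33% of all genes, so the 10 were called for sex no more often than the table as a whole. Timm44 was at 94.8% of the male level and Pnpla6 at 114.2%, and neither was called (limma adjusted p = 0.117 and 0.0953).

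The sex difference in Map2k7 lay in the locked-wheel mice. These comparisons were added after the values had been seen. Locked-wheel males ran from 50.7 to 80.1 CPM (median 56.4 CPM, n = 14) and locked-wheel females from 36.1 to 46.8 CPM (median 41.4 CPM, n = 14). No locked-wheel female reached the lowest locked-wheel male, which was so for 1 of the 10 genes beside 1.04% of all genes. Females had 71.2% of the male level (95% interval 64.9 to 78.2%, log2 fold change -0.49, limma adjusted p = 4.41e-08), 1 of 10 called beside 33.6% of all genes. With running wheels, males ran from 38.0 to 61.8 CPM (median 49.3 CPM) and females from 38.1 to 54.4 CPM (median 46.6 CPM). There the sexes overlapped almost wholly, at 95.7% of the male level (87.2 to 105.0%, limma adjusted p = 0.575). By limma, edgeR or DESeq2 0 of 10 were called, beside 14.8% of all genes in limma. None of the 10 had an unadjusted limma p under 0.05, beside 27.5% of all genes. The interaction of sex with wheel was 0.43 on the log2 scale (SE 0.0950, limma adjusted p = 0.00138), and Map2k7 was the 1 of 10 called beside 13.7%.

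Set against the wheel, Map2k7 fell in males and did not pass the test in females. Running males had 83.5% of the level of locked-wheel males (95% interval 76.2 to 91.5%, limma adjusted p = 0.0135), 1 of 10 called beside 4.13% of all genes. Running females had 112.2% of that of locked-wheel females (102.0 to 123.4%, adjusted p = 0.0919). The group means moved in the same direction in both genotype labels, but the wheel was not tested within a label. In males the control mean was 59.7 ± 9.40 CPM on locked and 47.0 ± 7.26 CPM on running wheels (SD, n = 7), and the labelled mean 58.0 ± 7.96 and 51.5 ± 7.74 CPM. In females the control mean was 41.4 ± 4.44 CPM on locked and 47.6 ± 3.40 CPM on running wheels, and the labelled mean 42.0 ± 2.66 and 45.8 ± 5.40 CPM.

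Markers of other cell types were also called for sex on locked wheels. There 33.6% of the 14321 genes tested were called, 2349 higher and 2466 lower in females. On locked wheels, 8 of 8 adipocyte markers, 5 of 5 fibroblast, 5 of 5 erythroid, 6 of 6 slow muscle and 6 of 8 leukocyte markers were called higher in females. Of the 10 fast muscle markers, 8 were called lower and 1 higher. Called higher as well were 1 of 4 Schwann cell, 1 of 5 endothelial and 1 of 14 liver markers. The summed adipocyte level was 261 to 784 CPM in locked-wheel females and 215 to 451 CPM in locked-wheel males, with medians of 592 and 300 CPM. With the adipocyte markers in the model the sex difference of Map2k7 on locked wheels kept its direction and its call. Over the 10 settings tried its log2 fold change ran from -0.50 to -0.42, with adjusted p values in limma, edgeR or DESeq2 of 1.90e-11 to 0.00122. The part of the fast and slow muscle, fibroblast, erythroid, leukocyte, Schwann cell and endothelial levels in it was not tested.

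**Figure D4:**
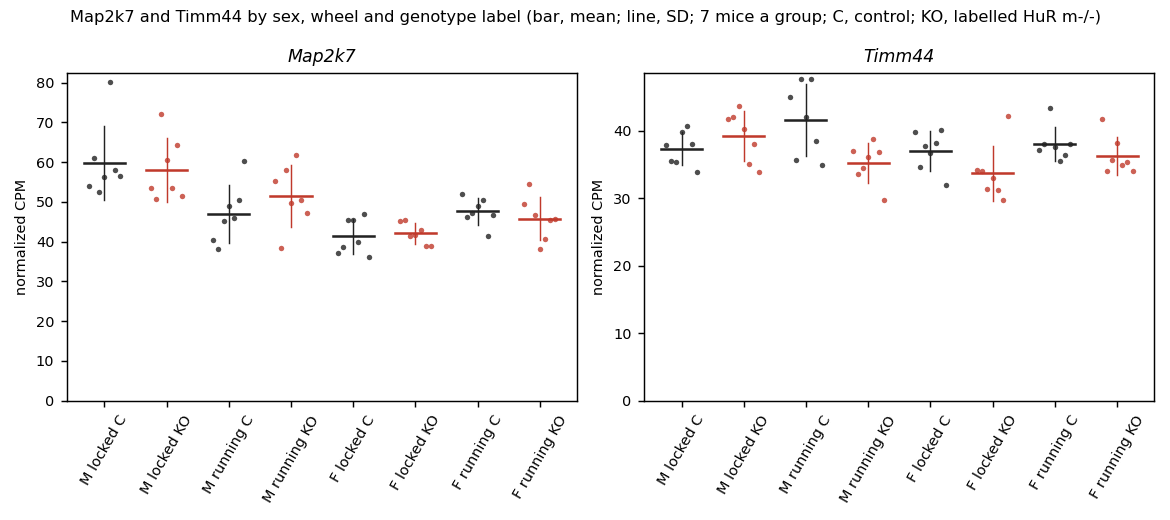
Normalized CPM (y axis, from 0) of Map2k7 (left) and Timm44 (right) in every mouse by group (x axis, as sex, wheel and label, with C control in black and KO labelled HuRm-/- in red). Points are mice, bars means and vertical lines 1 SD for 7 mice a group. Map2k7 in locked-wheel males (50.7 to 80.1 CPM) stands above locked-wheel females (36.1 to 46.8 CPM), and Timm44 in running-wheel males is lower with the label but overlaps.

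Running on the wheel gave no call among the 10 over all mice. The limma count was 0 of 10 beside 5.96% of all genes, and edgeR and DESeq2 called 0 of 10 as well. Arhgef18 and Xab2, 2 of the 10, had an unadjusted limma p under 0.05, beside 20.0% of all genes. Arhgef18 had a median of 7.66 CPM on locked wheels (4.84 to 9.62 CPM) and 8.40 CPM on running wheels (6.22 to 11 CPM). Running mice were at 112.7% of the locked level, with an interval of 103.5 to 122.6% and a limma adjusted p of 0.0781, and the ranges overlapped. Without labelled male 15 on a locked wheel Arhgef18 was called (adjusted p = 0.0433). In females alone, a comparison added after the values had been seen, Xab2 was the 1 of 10 called beside 14.8% of all genes. It ran from 4.27 to 8.58 CPM on locked wheels (median 6.23 CPM) and from 3.88 to 8.40 CPM on running wheels (median 5.09 CPM). Running females were at 80.8% of the locked level (limma adjusted p = 0.0354), the ranges overlapped, and the call was lost under 4 other settings and without any of 8 single mice, at adjusted p values up to 0.0878. The interaction of sex with wheel for Xab2 did not pass the test (adjusted p = 0.185).

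Within groups the correlations between the 10 genes centred near 0. Over the 56 mice, deviations of log2 CPM from the group mean gave a median Pearson r of 0.02 over the 45 pairs of the 10, from -0.32 to 0.31. Among pairs drawn evenly from all genes tested the median was -0.002, with quartiles of -0.12 and 0.12 and a range of -0.84 to 0.96. With Elavl1, r ran from -0.45 for Cers4 to 0.52 for Map2k7. It was 0.40 for Arhgef18, -0.35 for Mcoln1 and -0.01 for Timm44. These values are a description, since all genes of a mouse share its library and its scaling.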

How the data were processed

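Gastrocnemius RNA of 56 mice was measured as 1 table of raw counts, which the authors deposited without normalization. The labels' processing notes name GRCm38/mm10, R 4.0.3 and edgeR 3.38.4. The aligner, the counter and the use of strand are not given in the sources used here. The study's methods describe ribosomal RNA-depleted stranded libraries and the labels a 3′ mRNA kit with single 50-base reads, and a 3′ kit would make levels per exon length hard to compare. The smallest gene total was 168, so low genes had been removed before deposit. Gene names and positions came from GENCODE M21 (15503 of 15539 genes matched).

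Groups came from the labels. Counts were scaled with TMM (edgeR 4.0.16), filtered with filterByExpr, and fitted with voom and limma 3.58.1 in R 4.3.3 as 8 group means over all 56 mice, with Benjamini-Hochberg adjustment over 14321 genes in each comparison and a threshold of 0.05. Over all mice, an effect is the mean of the 4 within the other factors. TMM and limma are the study's methods. Alternatives were edgeR's quasi-likelihood test, DESeq2 1.42.0, DESeq2 size factors, upper-quartile scaling, other filters, quality weights, marker covariates, fits of 14 mice and each mouse left out. The sex-by-wheel comparisons, and those of sex on each wheel and wheel in each sex, were added after the values were seen. A block on mouse number was also added. Scripts were tested on simulated data.

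Named genes were the 10, Elavl1, Myl1 and up to 5 called neighbours with the smallest adjusted p. The 10 genes were listed by position and the marker lists by cell type, both with earlier results of these data known. Marker lists covered fast and slow muscle, liver, white and brown adipocytes, leukocytes, erythroid, Schwann and endothelial cells and fibroblasts. With the label over all mice, 6 of 6 slow muscle and 2 of 4 Schwann cell markers were called higher and 1 of 10 fast muscle markers lower. No marker of the other 7 lists was called, and 11.8% of all genes were. The median log2 fold change of the slow muscle markers ran from 0.39 in running-wheel females to 0.68 in locked-wheel males. Of the 2 brown adipocyte markers, Ucp1 was not analysed here. No 2 libraries of a group agreed within sampling noise.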

Additional observations from a re-analysis of the deposited data

Results flagged for a closer look

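A single mouse stood apart from the other 6 of its group in 8 of 88 values examined (the 10 genes and Elavl1 in 8 groups), by Dixon's test at its 95% critical value for 7 mice. Chance flags about 1 in 20 groups. Xab2 was at 8.40 CPM in control female 5 on a running wheel, where the next mouse had 5.64 CPM, and at 10.3 CPM in control male 16 on a locked wheel, where the next had 5.97 CPM. Stxbp2 was at 2.65 CPM in labelled female 8 on a running wheel, and Camsap3 at 2.15 CPM in labelled female 19 on a locked wheel. Labelled female 34 on a locked wheel was high for both Evi5l (8.80 CPM) and Timm44 (42.2 CPM), and leaving it out changed the Timm44 call with the label over all mice. Timm44 was at 43.4 CPM in control female 26 on a running wheel. Map2k7 was at 80.1 CPM in control male 20 on a locked wheel, where the next mouse had 60.9 CPM, and no Map2k7 call changed without it.

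The sex difference of Map2k7 differed between wheels by 0.43 on the log2 scale (limma adjusted p = 0.00138), as females were below males on locked wheels (-0.49) and not shown to differ on running wheels (-0.06).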

How the results depend on the processing

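Over the alternatives, 10132 of 10178 single-gene values of the 10 genes and Elavl1 were counted as the same, and 20 lost and 22 gained a call. A further 4, called in neither fit, changed sign with a shift of at least their SE. Among values with a call, 0 reversed. A value without a call counted as the same if it kept its sign or shifted by less than its SE. With sample quality weights the number of the 10 called became 1 for the label over all mice (Timm44) and 1 in running-wheel males (Timm44). Of all 14321 genes, 2276 and 1037 were then called. The number became 2 for sex over all mice (5086 of all genes) and 3 for sex on locked wheels (5094). It became 2 for the wheel in males (933) and 0 for the wheel in females (2551). The last was 0 also under DESeq2 (2366 of all genes) and with liver (1342) or adipocyte markers (1118) as a covariate. With each mouse left out in turn, the number called ran from 0 to 1 for the label over all mice (1481 to 1951 of all genes). It ran from 0 to 1 for the label in running-wheel males (86 to 521) and from 1 to 2 for sex over all mice (4548 to 4950). It ran from 0 to 1 for the wheel over all mice (739 to 1102) and from 1 to 2 for sex on locked wheels (4477 to 5049). It ran from 1 to 2 for the wheel in males (361 to 816) and from 0 to 1 for the wheel in females (1787 to 2359). The cause was not tested.

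The number of all genes called moved far more. For the label it ran from 37 to 405 around 165 in locked-wheel males, from 0 to 169 around 55 in locked-wheel females, from 210 to 1037 around 376 in running-wheel males, from 0 to 71 around 0 in running-wheel females and from 1575 to 2276 around 1695 over all mice. It ran from 1880 to 5086 around 4720 for sex, 536 to 1331 around 854 for the wheel, 1048 to 2406 around 1961 for sex by wheel, 1721 to 5094 around 4815 for sex on locked wheels, 555 to 933 around 591 for the wheel in males and 1118 to 2551 around 2118 for the wheel in females. The interactions of the label with sex and with wheel ran from 1 to 8 and from 0 to 22, around 1 each. The share of calls that were higher with the label was 27.9% in locked-wheel males, against 45.5% with upper-quartile scaling, 53.6% in edgeR's quasi-likelihood test and 59% in DESeq2. In locked-wheel females it was 32.7%, against 54.2%, 55.6% and 46.2%, and over all mice 37.4%, against 48.1%, 40.8% and 40.4%.

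With each mouse left out in turn, the label called 8 to 448 genes in locked-wheel males, 0 to 170 in locked-wheel females, 86 to 521 in running-wheel males and 0 to 6 in running-wheel females.

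No paired analysis was possible because the mouse numbers name single animals, and the groups compared for the label or the wheel share none within a sex. Males and females do share numbers (22 pairs), and a block on the number was added after seeing the data. Deviations from the group mean had a correlation over 0.1 in 8 of the 22 pairs and under -0.1 in 4. With the replicate block the number of the 10 called stayed at 1 for sex over all mice, 1 for sex on locked wheels and 1 for sex by wheel, and no other call among the 10 changed. With a filter of 10 counts in every mouse Camsap3 and Stxbp2 were not tested, and in 2 of the 4 fits of 14 mice Camsap3 was not. Depth limits those 2 genes most.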
